A study of Oryza sativa with 8 samples.

Results

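Peroxidases, catalases and ascorbate peroxidases are the enzymes with which plant roots use up or remove hydrogen peroxide, and 8 rice genes of these families were followed here over 4 groups of root samples. The genes were picked from earlier results on these same arrays and are identified by name. They are the class III peroxidases PRX74 and PRX112, R1C-Prx (by its name a peroxiredoxin), the catalase CAT-B, and the ascorbate peroxidases APX1, APX2, APX3 and APX4. A probe set belongs to them when its gene symbol, or a rice synonym of that gene, is one of these names. Such probe sets were found for 7 of the 8 names, and APX3 was skipped because no probe set carried its name. The 7 genes hold 15 probe sets, of 17905 genes and 22436 probe sets that the annotation assigns to 1 gene each, and all 15 passed the filter on low signals. Since the choice of genes drew on how they differed between soils, and for 1 CAT-B probe set between genotypes in P-deficient soil, those differences are given below as descriptions without a p-value, and where probe sets past a threshold are counted for them nothing is read from the count.

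The samples were roots of the indica rice cultivar IR64 grown in pots in a greenhouse, and 8 arrays of the Affymetrix rice design were used, with 2 biological replicates per group by the labels. Transgenic plants (T) carried 35S::OsPSTOL1, that is, the protein kinase gene OsPSTOL1 behind the constitutive 35S promoter, which drives a gene in most cells rather than where its own promoter would. Their controls (NT) were null segregants, sister plants that had lost the transgene. Both genotypes were sampled at heading in P-deficient soil but at mid-tillering in P-fertilised soil, so soil and growth stage cannot be told apart in any difference between soils. How many transgenic lines or plants stood behind a sample is not given in the sources used here, and p-values measure the spread between the deposited samples.

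Class III peroxidases are secreted haem enzymes that use hydrogen peroxide to oxidise phenolic compounds, among them the building blocks of lignin, and so can stiffen root cell walls. Peroxiredoxins remove peroxides through reactive cysteines. Catalase breaks hydrogen peroxide down in peroxisomes without a second substrate. Ascorbate peroxidases reduce it with ascorbate, which other enzymes then regenerate. In rice, APX1 and APX2 are the cytosolic forms, and APX3 and APX4 are assigned to peroxisomes.

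Signals are array intensities on a linear scale, and differences are given on the scale log2(signal + 32), which understates changes of dim probe sets. The median signal of an array ran from 14.1 to 18.3, and the number of arrays limits the precision. Array T replicate 1 in P-deficient soil stood apart in the control probe sets that read the 3-prime and the 5-prime end of a transcript. Its 3-prime to 5-prime signal ratio was 198 for GAPDH and 272 for actin, and that of T replicate 2 in the same soil was 3.05 and 20.3. On the other 6 arrays the ratio ran from 1.15 to 2.16 for GAPDH and from 4.85 to 8.61 for actin. Of the root marker genes, 7 probe sets of 6 genes were measured and all 7 were lower in P-deficient soil, with a median difference of -4.19, summed signals of 2248.6 to 3525.2 there and 13349.9 to 14287.6 in P-fertilised soil. The silicon channel gene Lsi1 made up most of that sum in P-deficient soil, at 2015.2 to 2772, so there the root label rests mainly on this 1 marker. The 12 probe sets of 5 green tissue marker genes summed to 256 to 451.3, except on T replicate 2 in P-fertilised soil, where they summed to 1421.7.

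The class III peroxidases PRX74 and, by 1 of its probe sets, PRX112 were bright in P-fertilised soil at mid-tillering. They were near the bottom of the scale in P-deficient soil at heading. R1C-Prx, by its name of another family, the peroxiredoxins, had the opposite pattern. PRX74 (LOC4339222, probe set Os.153.1.S1_at) had signals of 2241.8 and 2297 in transgenic roots and 2491.5 and 2645.1 in null roots in P-fertilised soil. In P-deficient soil it read 63.3 and 1.7 in transgenic roots and 4.8 and 0.5 in null roots. No P-deficient array came near a P-fertilised one, and T replicate 1 was the highest of the 4 P-deficient arrays. The P-deficient minus P-fertilised difference of PRX74 was -5.79 ± 0.28 (SE) over both genotypes, -6.23 ± 0.40 in NT and -5.34 ± 0.40 in T. In these whole-root samples fewer cells of a type and less RNA per cell cannot be told apart.

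PRX112 (LOC4344279) was measured by 2 probe sets. Os.11556.1.S1_at had P-fertilised signals of 802.4 and 1067.8 in transgenic roots and 704.2 and 859.8 in null roots. Its P-deficient signals were 51.7 and 8.7 in transgenic roots and 6.4 and 2 in null roots, again with T replicate 1 the highest, and the soil difference was -4.26 ± 0.23. The other probe set, OsAffx.5305.1.S1_at, stayed dim throughout, at 46.9 to 58.5 on the P-deficient and 27 to 42.9 on the P-fertilised arrays. Its soil difference had the other sign, 0.33 ± 0.10, and ran from 0.17 to 0.57 over the other settings of the fit. Across the 8 arrays, after the mean of each soil was subtracted, the 2 probe sets of PRX112 had a Pearson correlation of -0.01, so they did not vary together.

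R1C-Prx (LOC4344045, Os.13972.1.S1_at) read 2606.7 and 2709.6 in transgenic roots and 1805.2 and 1264.8 in null roots in P-deficient soil. In P-fertilised soil it read 21.9 and 21.2 in transgenic roots and 25.3 and 23.4 in null roots. All 4 P-deficient arrays lay far above all 4 P-fertilised ones, and the soil difference was 5.21 ± 0.13, with 4.78 ± 0.19 in NT and 5.65 ± 0.19 in T. The order of its group levels was T above NT in P-deficient soil, then the 2 P-fertilised groups, where T minus NT was -0.07 on the log2 scale.

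A further gene with a probe set, listed with the bare synonym peroxidase in the gene table used, was taken up after the annotation was read. LOC4344277 (Os.2237.1.S1_at) is the protein-coding neighbour of PRX112, with 0 other protein-coding genes between them in assembly ASM3414082v1. Its signals were 134.5 and 189.3 in transgenic roots and 113.7 and 123.6 in null roots in P-fertilised soil, and 3.9 and 1 in transgenic roots and 0.9 and 0.5 in null roots in P-deficient soil. It was lower in P-deficient soil by the limma fit, with a difference of -2.34 ± 0.12 and an adjusted p of 2.04e-06. Like probe set Os.11556.1.S1_at of its neighbour PRX112, but not the other PRX112 probe set, it was lower on every P-deficient array than on any P-fertilised one.

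**Figure D1:**
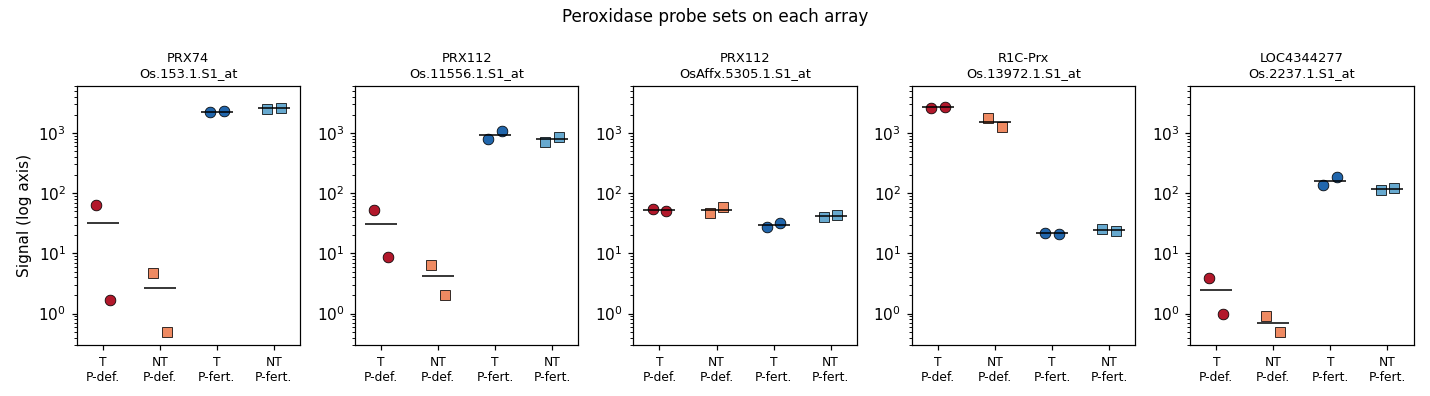
Signal on a log axis of each peroxidase probe set on each of the 8 arrays, in the 4 groups named under the axis (T transgenic, NT null segregant), with points for arrays and lines for group means. PRX74, the first PRX112 probe set and LOC4344277 sit low in P-deficient soil (PRX74 at 0.5 to 63.3), R1C-Prx sits high there (1264.8 to 2709.6), and the second PRX112 probe set stays between 27 and 58.5.

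CAT-B (LOC4342124) was read by 5 probe sets, and they did not tell the same story. Affymetrix names carry the reason to keep them apart: an _x_at probe set holds probes that may bind other sequences, and an _s_at probe set is shared among several transcripts. Os.39055.1.A1_s_at had signals from 3098.2 to 3823.6 over the 8 arrays. Os.156.1.S1_at read 2009.9 and 2583.7 in transgenic roots and 2623 and 3381.4 in null roots in P-deficient soil, and 2824.3 to 3088.6 in P-fertilised soil. Both gave a high signal in the roots of every group.

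The outlying probe set was Os.156.2.S1_x_at. It read 6.8 and 17.2 in transgenic roots and 422.3 and 243.6 in null roots in P-deficient soil. In P-fertilised soil it read 224.1 and 422.4 in transgenic roots and 595.6 and 397.3 in null roots. Both P-deficient T arrays lay far below the other 6, whose ranges ran together. Its T minus NT difference in P-deficient soil was -3.02 ± 0.34, and its soil difference was -2.97 ± 0.34 in T and -0.55 ± 0.34 in NT.

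Those 2 arrays are also the pair with the highest GAPDH and actin 3-prime to 5-prime ratios. With T replicate 1 left out, the T minus NT difference of this probe set in P-deficient soil was -2.85, and with the log of the GAPDH ratio as a covariate it was -2.70 ± 0.50. T replicate 2, the T array then left, has the next highest ratios, and the GAPDH ratio mainly sets T replicate 1 apart (198, against 3.05 on T replicate 2). Genotype and end ratio thus cannot be told apart in this soil by these fits. The T minus NT difference also depended on the pseudocount. It ran from -4.75 with a pseudocount of 1 to -1.92 with a pseudocount of 100. The T signals of 6.8 and 17.2 lie near or below the array medians of 14.1 to 18.3. CAT-A, the other catalase gene found by its name, also had 1 probe set low on the P-deficient T arrays. This probe set, Os.9172.2.S1_at, read 229.8 and 483.8 in transgenic roots and 652.8 and 808 in null roots. Its T minus NT difference there was -1.04 ± 0.30, with a limma adjusted p of 0.244. The other 2 CAT-A probe sets read 2422.2 and more on both T arrays.

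Another pair of CAT-B probe sets ran the opposite way in P-deficient soil. Os.39055.2.A1_x_at read 1331.3 and 1371.6 in transgenic roots and 1063.1 and 820.4 in null roots, a difference of 0.52 ± 0.16 with a limma adjusted p of 0.266. Os.39055.1.A1_at read 226 and 226.5 in transgenic roots and 166.9 and 113 in null roots, a difference of 0.60 ± 0.20 with an adjusted p of 0.282. In each of these the T arrays lay above the NT arrays without passing the test. Os.156.1.S1_at differed by -0.38 ± 0.17 (limma adjusted p 0.379), both T arrays being below both NT arrays, and Os.39055.1.A1_s_at differed by -0.005 ± 0.12 (adjusted p 0.991).

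The 5 CAT-B probe sets thus gave T minus NT estimates of both signs in the same RNA. Over the 8 arrays, after subtracting each soil's mean, Os.39055.1.A1_at and Os.39055.2.A1_x_at correlated at 0.91 and Os.156.1.S1_at and Os.156.2.S1_x_at at 0.68. Across these pairs the correlation was negative, from -0.79 to -0.84. These are correlations over arrays that share the same RNA and are given as descriptions.

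**Figure D2:**
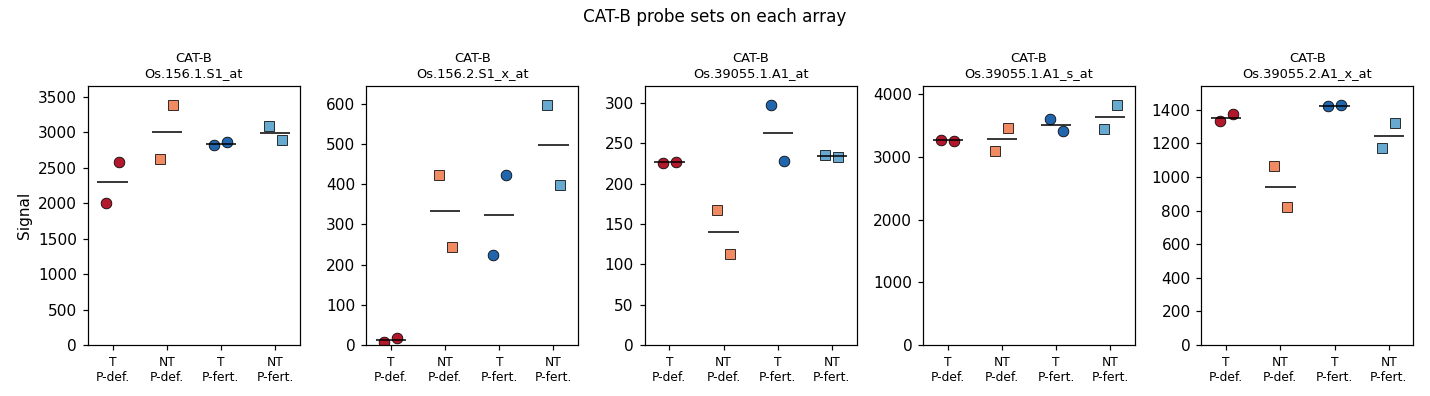
Signal on a linear axis from 0 of the 5 CAT-B probe sets on each array, in 4 groups, with points for arrays and lines for group means. Os.156.2.S1_x_at reads 6.8 and 17.2 on the P-deficient T arrays, while Os.39055.1.A1_s_at stays between 3098.2 and 3823.6 in all groups.

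**Figure D3:**
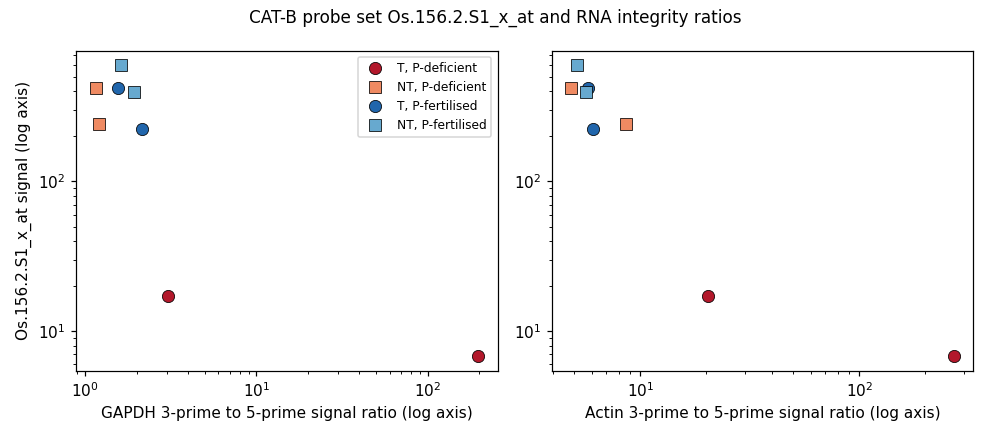
Signal of CAT-B probe set Os.156.2.S1_x_at against the 3-prime to 5-prime signal ratio of GAPDH (left) and actin (right), all axes logarithmic, with 1 point per array. The 2 P-deficient T arrays have the lowest signals (6.8 and 17.2) and the highest ratios (198 and 3.05 for GAPDH, 272 and 20.3 for actin).

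The 6 ascorbate peroxidase probe sets differed by at most 0.71 between soils over both genotypes, and no probe set of them passed the test between genotypes. APX1 (LOC4332474, Os.12723.1.S1_at) read 2743.7 and 2850.2 in transgenic roots and 2526.6 and 3379.5 in null roots in P-deficient soil. In P-fertilised soil it read 2070.5 and 2319.6 in transgenic roots and 2329.8 and 2358.8 in null roots. The P-deficient arrays were all above the P-fertilised ones, by 0.33 ± 0.11, a difference that ran from 0.15 after quantile normalization to 0.43 over the other settings of the fit.

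APX2 (LOC4344397) had 4 probe sets. Os.12693.1.S1_a_at, whose name marks alternate transcripts of 1 gene, read 2508.8 to 3522.6 over the 8 arrays and Os.12693.5.S1_x_at 2311.6 to 2855.1. Their soil differences were 0.18 and 0.15, small values that turned to -0.01 and -0.02 after quantile normalization, so neither has a settled direction. Os.12693.3.S1_at was dim but separated the soils, with 102.1 and 85 in transgenic roots and 75.9 and 80.4 in null roots in P-deficient soil. Its P-fertilised signals were 46.6 and 39.4 in transgenic roots and 31.9 and 42.7 in null roots, and its soil difference was 0.71 ± 0.11. Os.12693.1.S2_at stayed at 11.9 to 23.9.

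APX4 (LOC4346247, Os.10609.1.S1_at) read 569.5 and 404.9 in transgenic roots and 421.3 and 629.9 in null roots in P-deficient soil. In P-fertilised soil it read 367.2 and 319 in transgenic roots and 402.9 and 347.8 in null roots. Its lowest P-deficient array lay just above its highest P-fertilised array, and the soil difference was 0.44 ± 0.17. The replicates within each P-deficient group were further apart than the 2 genotype means.

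**Figure D4:**
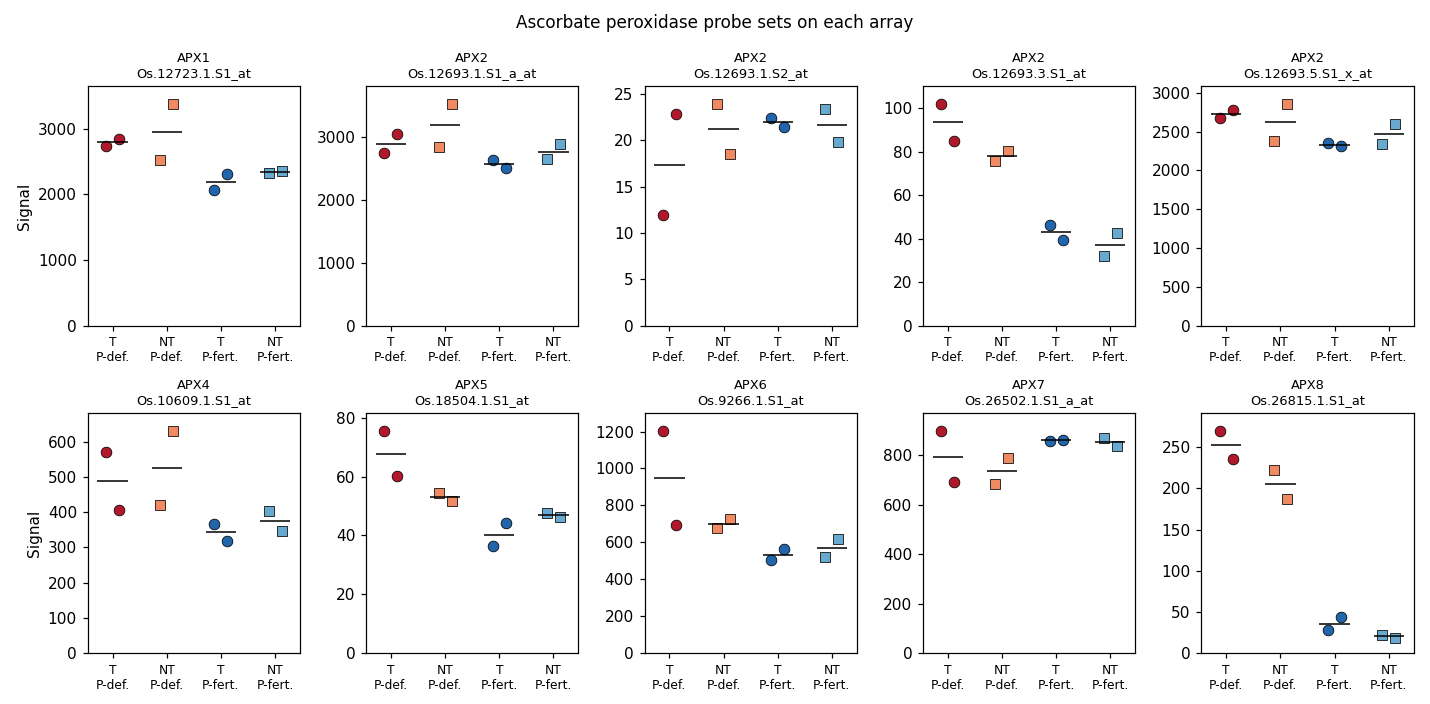
Signal on a linear axis from 0 of each ascorbate peroxidase probe set on each array, in 4 groups, with points for arrays and lines for group means. APX1 reads 2070.5 to 3379.5 over all arrays, and APX8 reads 187.6 to 269.5 in P-deficient and 18.6 to 43.9 in P-fertilised soil.

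Of the 15 probe sets, 8 passed the threshold of 0.05 on the limma adjusted p for soil over both genotypes, 4 higher and 4 lower in P-deficient soil. Of all 34316 probe sets tested, 47.1 percent passed. In NT alone 5 passed, beside 32.5 percent of all, and in T alone 6 passed, beside 35.7 percent. The genes were chosen with these differences known, so nothing is read from the counts. The median soil difference over both genotypes was -0.07 for the 15 probe sets and 0.01 for all probe sets. Leaving out T replicate 1 or NT replicate 2 in P-deficient soil, T replicate 1 in P-fertilised soil, or either P-fertilised NT array left 5 past it, those of PRX74, PRX112 (Os.11556.1.S1_at), R1C-Prx, CAT-B (Os.156.2.S1_x_at) and APX2 (Os.12693.3.S1_at). APX1, PRX112 (OsAffx.5305.1.S1_at) and CAT-B (Os.39055.1.A1_at, -0.42 ± 0.14) passed in 6, 9 and 8 of 17 alternatives. Without NT replicate 1 in P-deficient soil 11 passed.

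Whether the transgene altered these genes was asked within each soil. In P-deficient soil 1 of the 15 passed, beside 0.108 percent of all probe sets tested. It was the CAT-B probe set Os.156.2.S1_x_at, which was chosen with this difference known and so answers nothing here, and none of the other 14 passed (3 had an unadjusted p under 0.05, as did 13.3 percent of all). The median T minus NT difference there was 0.015 for the 15 probe sets and -0.02 for all probe sets. Without T replicate 2 in P-deficient soil 2 of the 15 passed, and without T replicate 1, either NT array of that soil or either P-fertilised NT array none did.

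For R1C-Prx, whose P-deficient signals are given above, the T minus NT difference there was 0.80 ± 0.19, with a 95 percent interval from 0.37 to 1.23. Its limma adjusted p was 0.183, so it did not pass the adjusted threshold although both T arrays were above both NT arrays. Those T arrays had the highest GAPDH and actin end ratios, so genotype cannot be told apart from end ratio for R1C-Prx. In P-fertilised soil its difference was -0.07 ± 0.19 (limma adjusted p 1). PRX74 differed by 0.71 ± 0.40 in P-deficient soil (interval -0.20 to 1.62, limma adjusted p 0.477), and T replicate 1 decided that value. Without that array the PRX74 difference was -0.04, and without T replicate 2 it was 1.46 with an adjusted p of 0.0136, while the adjusted p over all alternatives ran from 0.0136 to 0.98. PRX112 (Os.11556.1.S1_at) differed by 0.69 ± 0.32 (interval -0.04 to 1.42, adjusted p 0.399), and without T replicate 1 by 0.17.

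T replicate 1 in P-deficient soil had the highest PRX74 and PRX112 (Os.11556.1.S1_at) signals there. It was also the highest of the 4 P-deficient arrays in 4 of the 7 root marker probe sets. The water channel gene OsTIP2;1 (Os.12345.1.S1_s_at) read 928.8 on it and 75.7, 58 and 36.6 on the other 3 P-deficient arrays. NAS2, which makes the metal chelator nicotianamine, read 127.9 on it and 47.2 to 55.9 on the others. The remaining root marker probe sets, of Lsi1, Lsi2 and AMT1-2, were highest on NT replicate 2 instead. They read 2772, 106.8 and 311.1 there and 2121.4, 76.7 and 106.1 on T replicate 1. The root marker list summed to 3525.2 on T replicate 1 and to 2743.8, 2248.6 and 3311.1 on the other 3 P-deficient arrays. The part of root composition or of the array's end ratios in the peroxidase values was not tested beyond leaving the array out and the GAPDH covariate, under which the PRX74 and PRX112 differences were -0.37 and -0.04.

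No ascorbate peroxidase probe set passed in either soil. In P-deficient soil the T minus NT difference of APX1 was -0.06 ± 0.16 (interval -0.42 to 0.30, limma adjusted p 0.893). The 4 APX2 probe sets ranged from -0.13 to 0.19 (limma adjusted p 0.645 to 0.868), and APX4 differed by -0.10 ± 0.23 (interval -0.63 to 0.44). These intervals leave room for differences of either sign.

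In P-fertilised soil 0 of the 15 passed in limma, 0 had an unadjusted p under 0.05, and 0.00291 percent of all probe sets passed. Over both soils 0 of the 15 passed, beside 0.0321 percent of all, and 4 had an unadjusted p under 0.05, as did 9.63 percent of all. Os.39055.2.A1_x_at of CAT-B differed by 0.35 ± 0.11 over both soils (limma adjusted p 0.429), with T arrays at 1331.3 to 1425.8 and NT arrays at 820.4 to 1322. The change of the T minus NT difference between soils (the interaction) passed for 0 of the 15 and for 0 percent of all probe sets, with 2 of the 15 and 5.92 percent of all at an unadjusted p under 0.05. Leaving out T replicate 2 in P-deficient soil brought 1 of the 15 past the threshold over both soils (CAT-B Os.156.2.S1_x_at) and 1 for the interaction (PRX74).

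**Figure D5:**
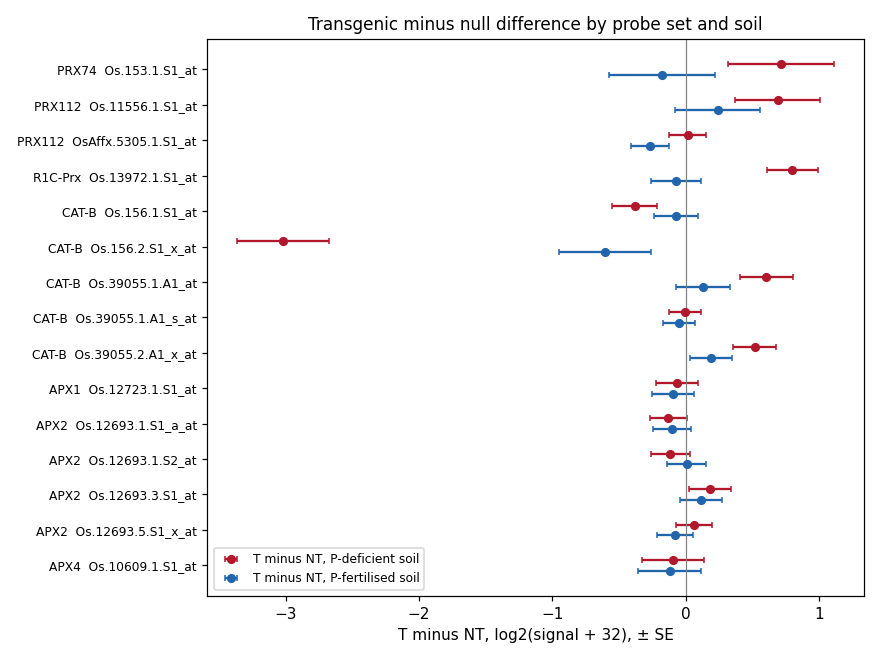
T minus NT difference on the log2(signal + 32) scale for each of the 15 probe sets, by soil, with bars of 1 SE from the fit. Os.156.2.S1_x_at of CAT-B stands at -3.02 in P-deficient soil, R1C-Prx at 0.80, and every P-fertilised point lies between -0.61 and 0.24.

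Other enzymes of peroxide and superoxide handling were taken from 8 lists, of which 6 matched by name a gene with a probe set. The lists for other class III peroxidases and for glutathione peroxidases matched no gene name, which does not show that the array lacks such genes. The lists were chosen with earlier results of these data known, so their counts and p-values below are descriptions and nothing is inferred from them. They gave 38 tested probe sets of 30 genes. In P-deficient soil at heading 23 of these were higher and 2 lower by limma, with a median difference of 0.41 (all probe sets 0.01). Of all 34316 probe sets tested, 7649 were higher and 8521 lower, and 47.1 percent passed in either direction. All 4 probe sets tested for superoxide dismutases, the enzymes that turn superoxide into hydrogen peroxide, were higher. Further sodA probe sets (Os.4610.1.A1_at and Os.4610.1.A1_s_at) were too dim to pass the filter. The plastid form sodCp read 1661.5 and 2017.2 in transgenic roots and 2196.8 and 3072.7 in null roots in P-deficient soil, and 832.1 to 914 in P-fertilised soil, with an adjusted p of 8.19e-05. The cytosolic form SODCC.2 rose by 1.11 ± 0.10 (adjusted p 4.89e-05) and the manganese form sodA by 0.42 ± 0.10 (adjusted p 0.00752). SODCC.1 rose by 0.27 ± 0.09 (adjusted p 0.0448), a call that was lost after quantile normalization (0.09, adjusted p 0.333) and after median centring (0.26, adjusted p 0.0651).

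Among the other ascorbate peroxidases 2 of 4 rose, beside the 47.1 percent of all probe sets that passed in either direction. APX8, a chloroplast form, read 269.5 and 235.8 in transgenic roots and 222 and 187.6 in null roots in P-deficient soil. In P-fertilised soil it read 27.4 and 43.9 in transgenic roots and 21.7 and 18.6 in null roots. This difference of 2.13 ± 0.13 (limma adjusted p 4.17e-06) exceeded those estimated for APX1, APX2 and APX4, which were not tested against it. APX6 rose by 0.52 ± 0.17 (adjusted p 0.0358). It read 1201.9 on T replicate 1 in P-deficient soil and 677 to 725.7 on the other P-deficient arrays. In NT alone the APX6 difference was 0.29 (limma adjusted p 0.396). APX5 at 0.29 (adjusted p 0.0519, and 0.0103 after quantile normalization) and APX7 at -0.17 (adjusted p 0.281) did not pass.

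The enzymes that regenerate ascorbate and glutathione rose for 2 of 3 probe sets tested, beside the 47.1 percent of all that passed in either direction. Glutathione reductase GR rose by 0.39 ± 0.09 (limma adjusted p 0.00972) and the monodehydroascorbate reductase MDAR5 by 0.46 ± 0.10 (adjusted p 0.00578), while MDAR2 was at -0.17 (adjusted p 0.367). None of the 3 probe sets of CAT-A passed for soil over both genotypes, with differences of 0.16, -0.38 and 0.11, and the positive pair turned to -0.02 and -0.09 after quantile normalization. The probe set at -0.38, Os.9172.2.S1_at, was at -1.13 in T (adjusted p 0.0178, lower) and at 0.38 in NT (adjusted p 0.361), and its interaction did not pass (adjusted p 0.829). The superoxide-producing NADPH oxidase gene OsrbohB was at 0.08 (adjusted p 0.647).

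Peroxiredoxins, which remove peroxides through reactive cysteines, and thioredoxins, which reduce them again, gave 15 higher and 2 lower of 23 probe sets. Of all 34316 probe sets, 7649 were higher and 8521 lower. The thioredoxin genes OsTrx18 (1.91 ± 0.18, limma adjusted p 5.75e-05) and OsTrx03 (1.88 ± 0.15, limma adjusted p 1.75e-05) and the mitochondrial peroxiredoxin PRXIIF (1.41 ± 0.11, limma adjusted p 1.9e-05) had the largest rises of the list. The list leaves out the member R1C-Prx, whose soil difference was larger (5.21 ± 0.13). A further OsTrx18 probe set, Os.35448.1.S1_at, was at -0.67 (limma adjusted p 0.0667). OsTrx10 fell by 0.38 (adjusted p 0.0201). PRXIIC gave both signs, with its dim probe set Os.39012.1.S1_at at -0.71 and its 2 bright ones at 0.61 and 0.49, all past the threshold, so CAT-B was not alone in having probe sets that disagree. For T against NT in P-deficient soil 0 of the 38 passed in limma and 5 had an unadjusted p under 0.05, a share of 13.2 percent beside 13.3 percent of all probe sets.

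The genes whose signals ran most like each member over the 8 arrays, after subtracting each soil's mean, were named with their Pearson correlation. They share the same arrays, and the values describe likeness only. PRX74 was most like GER4 (0.996), NAS2 (0.988) and OsTIP2;1 (0.981), each highest on T replicate 1 among the P-deficient arrays as PRX74 was. PRX112 (Os.11556.1.S1_at) was most like the auxin repressor gene IAA7 (0.98), OsTRN1 (0.977) and the expansin EXPB3 (0.976). R1C-Prx was most like HSF05 (0.973), rab25 (0.969) and HAP3 (0.965).

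The CAT-B probe sets had different companions. Os.156.2.S1_x_at was most like NMCP1 (0.991), the potassium transporter HAK7 (0.991) and the calcium-dependent kinase CPK13 (0.98), and Os.156.1.S1_at was most like osRAD23 (0.986). Os.39055.2.A1_x_at was most like aba1 (0.984) and Os.39055.1.A1_at was most like OsC3H35 (0.977). Among the ascorbate peroxidases APX1 was most like GT3 (0.967), APX2 like GAPC (0.971) and APX4 like HOX5 (0.994). GT3 was dim in P-deficient soil, at 3.9 to 17.5, and differences between soils do not enter these correlations.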

How the data were processed

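The deposited table holds the authors' intensity values, for 57381 probe sets on each array, made with GCOS per the submitters' processing notes (version and settings not given in the sources used here). Trimmed means of 100.01 to 100.02 show a common scaling. Per the labels' protocols, root RNA was taken with Trizol. Here 187 control probe sets were left out, values were analysed as log2(signal + 32), the lowest 40 percent by mean were dropped, and limma 3.58.1 in R 4.3.3 was run on the other 34316 (4 group means, eBayes with a trend, Benjamini-Hochberg over all, checked on simulated data). Symbols came from the platform annotation and a RefSeq table of assembly ASM3414082v1, which all 22436 probe sets with 1 gene matched. Another 95 had several genes and 34663 none listed.

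All member probe sets are named. Companion lists were matched by symbol, with up to 3 probe sets each way named for soil. Those for other class III peroxidases and for glutathione peroxidases matched no gene, and TRX1, a histone methyltransferase gene, was left out of the thioredoxins. The members and lists were chosen with earlier results of these data known. Likeness names the 3 genes with the highest correlation. Other pseudocounts, scalings, filters, no trend, a replicate block, a GAPDH ratio covariate, each array left out and fits on 4 arrays were tried.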

Additional observations from a re-analysis of the deposited data

Results flagged for a closer look

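R1C-Prx (Os.13972.1.S1_at) was singled out because its T arrays were both above the NT arrays in P-deficient soil (2606.7 and 2709.6 against 1805.2 and 1264.8) and both below them in P-fertilised soil (21.9 and 21.2 against 25.3 and 23.4). The T minus NT difference in P-deficient soil less that in P-fertilised soil was 0.875 ± 0.267 on the log2 scale. The interaction test did not pass, with a limma adjusted p of 0.829 and an unadjusted p of 0.0107, and the P-fertilised signals are near the pseudocount. The P-deficient T arrays also had the highest GAPDH and actin 3-prime to 5-prime ratios.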

How the results depend on the processing

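No sign was reversed in any called value, and of 1838 values of single probe sets under alternatives 1673 kept their side of the threshold or their size, 90 moved, 58 lost the threshold and 17 gained it. The count of the 15 probe sets past the threshold for soil over both genotypes was 8, and 5 without the filter, 5 with the GAPDH covariate (the cause was not tested) and 5 to 11 with 1 array left out. In NT it was 5, and 3 to 7 with 1 array left out. For T minus NT in P-deficient soil it was 1, and 0 with a pseudocount of 100, without the filter, with the replicate block, with the GAPDH covariate and with only the 4 arrays of that soil, and 0 to 2 with 1 array left out. With 1 array left out, the count was 0 to 1 for T minus NT over both soils, for the interaction, and for the 38 companion probe sets in P-deficient soil. The labels give only shared replicate numbers and do not say whether these pair the samples. Replicate deviations correlated at -0.26 to 0.21 between groups, which cannot settle it, and the main fit used no replicate block. The block kept the other counts (8, 5 and 6 for soil, 0 for the rest). Dim probe sets such as PRX74 in P-deficient soil depend on the pseudocount: its T minus NT estimate was 0.33 with 100 and 2.16 with 1. Where only 1 array is left in a group, it is assumed to vary like the others.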
